A study of Mus musculus with 2 samples.

Results

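The genes described here are 10 members of the Notch pathway, taken by name from 55536 annotated genes measured in hippocampus of mouse pups. They are the receptors Notch1, Notch2 and Notch3, the ligands Dll1, Dll3 and Jag1, the target genes Hes1, Hes5 and Hey1, and Rbpj, the DNA-binding protein of the pathway. The rule names genes and uses no measured value, and all 10 members had reads in both libraries. Total RNA came from female B6CASTF1/J mice aged 10 days, an F1 hybrid strain. The labels name no treatment and no engineered allele, and the tissue entry reads layer of hippocampus, with the layer itself unnamed. The study has 1 group of 2 libraries, called replicate 1 and replicate 2, each a pool of 3 mice with their own animal numbers and an input of 300 ng. There is no second condition, so the members were compared with each other within a library, and replicate 2 was set against replicate 1.

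Notch signalling passes between touching cells. A ligand on one cell binds a receptor on its neighbour, the receptor is cut first by an ADAM protease and then by gamma-secretase, and its intracellular part enters the nucleus, where it joins RBPJ and Mastermind-like coactivators to switch on genes of the Hes and Hey families. In the hippocampus the pathway is known for keeping neural stem cells of the dentate gyrus undifferentiated and for its activity in astrocytes and blood vessels.

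The libraries held 29858328 and 32275110 expected counts, which are estimated reads per gene. Levels are in TPM, a transcript abundance that corrects for transcript length and depth. They come from the table estimated from transcriptome alignments (the alignment-based table) unless the table estimated directly from reads (the read-based table) is named. Means are given with the SD of the 2 libraries. Genes of brain cell types were present, with 8 of 8 glutamatergic neuron genes and 12 of 12 astrocyte genes detected. Detected means a TPM of at least 1 in each library. This does not single out the hippocampus, since 8 of 8 choroid plexus and ependyma genes were detected too, summing to 452 and 698 TPM. In bulk RNA such as this, fewer cells of a type and less RNA per cell cannot be told apart.

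All 10 members reached a TPM of 1 in both libraries, and none reached 40. The median over the members was 10.8 in replicate 1 and 9.99 in replicate 2. For comparison, nuclear protein-coding genes at a TPM of 1 or more had medians of 15.3 and 14.7. Hes5 was the highest member at 31.9 ± 5.52 (SD, n = 2) and Dll3 the lowest at 3.01 ± 0.240. Nuclear protein-coding genes held 45.2% and 44.5% of all TPM, and rescaled to that class alone the members' median was 23.2. By sums over the members, the targets led with 64.6 and 60.8, followed by the receptors with 43.8 and 41.2 and the ligands with 16.2 and 13.2. The summed TPM of the 3 receptors was 2.70-fold that of the 3 ligands in replicate 1 and 3.12-fold in replicate 2, while the read-based table gave 1.75-fold and 2.79-fold. With the other receptor Notch4 and the other canonical ligands Jag2 and Dll4 added, a sum chosen after the values were seen, the ratio was 1.02 and 1.19, and it lay below 1 in the read-based table, at 0.706 and 0.992. With protein-coding transcripts alone, the ratio was 3.05 and 3.24 for the members and 1.37 and 1.42 with those genes added.

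**Figure D1:**
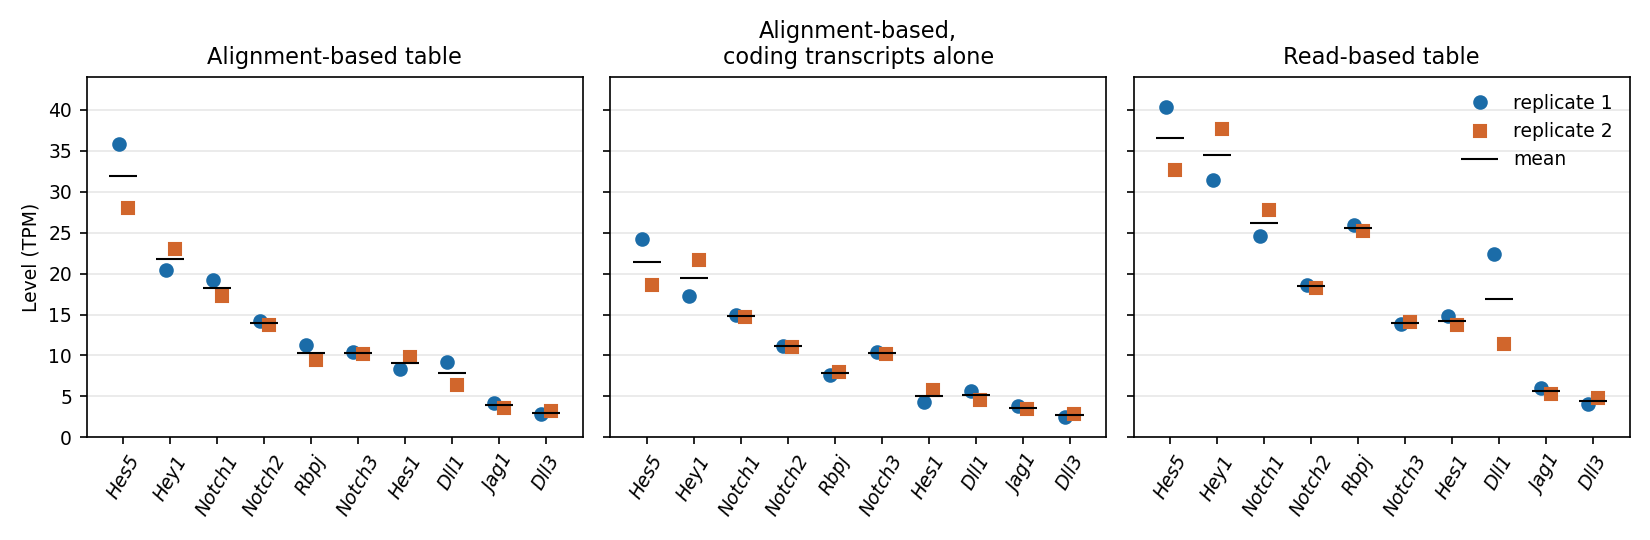
Level of each member in TPM (vertical axis) in replicate 1 (circles) and replicate 2 (squares), with black lines for their mean, in the alignment-based table, in the same table with protein-coding transcripts alone, and in the read-based table. Hes5 and Hey1 are the highest and Jag1 and Dll3 the lowest in all 3 panels, and Dll1 differs most between the libraries in the read-based table, at 22.4 and 11.4.

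The receptors stood in the order Notch1, Notch2, Notch3 in both libraries. Notch1 (ENSMUSG00000026923.15, chromosome 2, 26457903 to 26516663, mm10) is the receptor that maintains neural stem cells. It was measured at a TPM of 19.2 in replicate 1 and 17.3 in replicate 2, from 3120 and 3239 expected counts, the most of any member. This placed it above 74.2% and 73.1% of nuclear protein-coding genes. Notch2 (ENSMUSG00000027878.11, chromosome 3, 98013527 to 98150361), which also acts in neural stem cells, stood at 14.2 and 13.8, a mean of 14.0 ± 0.318. Notch3 (ENSMUSG00000038146.8, chromosome 17, 32120820 to 32166852), known above all as the receptor of vascular smooth muscle and pericytes, stood at 10.4 and 10.2. The libraries did not overlap between any 2 of the receptors, and each library held nearly the same level of each.

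Within a library, a difference between 2 members was counted as separated where its log2 ratio kept 1 sign and its mean was beyond 2 SD. An exact sign-flip test on 2 libraries cannot go below a two-sided p of 0.5, so these ratios carry no p. The receptors were separated from each other in every pair. Notch1 exceeded Notch2 by a log2 ratio of 0.38 ± 0.08, which is 1.30-fold, and exceeded Notch3 by 0.82 ± 0.09, or 1.76-fold. Notch2 exceeded Notch3 by 0.44 ± 0.01, or 1.36-fold. Of the receptor TPM, Notch1 held 42.9 ± 1.43%, Notch2 32.9 ± 0.686% and Notch3 24.2 ± 0.739%.

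A retained-intron transcript held part of the Notch2 level. Notch2-202, of 1896 bases, held 3.01 and 2.77 TPM, while the full-length Notch2-201 held 11.2 and 11.0. With protein-coding transcripts alone, Notch2 exceeded Notch3 by a log2 ratio of 0.11, against 0.41 for Notch1 over Notch2. Notch3 had no such component, since Notch3-201 held 10.02 TPM in replicate 1 and all 10.2 TPM in replicate 2.

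The ligands were the lowest group. Dll1 (ENSMUSG00000014773.13, chromosome 17, 15367354 to 15376872), which differentiating neuronal precursors show to their neighbours, stood at 9.17 in replicate 1 and 6.45 in replicate 2. Jag1 (ENSMUSG00000027276.7, chromosome 2, 137081456 to 137116644), a Jagged ligand found in vessels and in glial cells, stood at 4.23 and 3.57. Dll3 (ENSMUSG00000003436.11, chromosome 7, 28293553 to 28302238), a divergent ligand known to inhibit signalling from within its own cell, stood at 2.84 and 3.18. Dll1 lay above the other two in both libraries, and Jag1 lay above Dll3 in both by a smaller margin.

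Dll1 exceeded Dll3 by a log2 ratio of 1.33 ± 0.47, or 2.51-fold, and exceeded Jag1 by 1.95-fold, with a log2 ratio of −0.97 ± 0.19 for Jag1 over Dll1. Jag1 exceeded Dll3 by only 0.36 ± 0.28, which was not beyond 2 SD. Dll1 held 52.7 ± 5.38% of the ligand TPM, Jag1 26.5 ± 0.706% and Dll3 20.8 ± 4.67%. Short transcripts made up part of the Dll1 level. The coding Dll1-201 held 4.82 and 4.11 TPM, and Dll1-203, a retained-intron transcript, held 1.04 and 0.23. With protein-coding transcripts alone, Dll1 stood at 5.67 and 4.63, and its lead over Dll3 was 1.85-fold. Its expected counts differed less than its TPM, at 402 and 359. A non-coding gene on the opposite strand, A930024N18Rik, overlaps Dll1 by 1873 bases and held 82 and 69 counts, and none of the sources used here states whether counting used strand, so the level of Dll1 is uncertain to that extent.

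The targets held the 2 highest members. All 3 encode basic helix-loop-helix repressors, which silence genes that drive neuronal differentiation. Hes5 (ENSMUSG00000048001.7, chromosome 4, 154960923 to 154962371), the target tied most closely to neural stem cells and astrocyte precursors, stood at 35.8 and 28.0, above 85.8% and 82.2% of nuclear protein-coding genes. Hey1 (ENSMUSG00000040289.8, chromosome 3, 8663359 to 8667256), a target in vessels and in neural progenitors, stood at 20.5 and 23.1. Hes1 (ENSMUSG00000022528.8, chromosome 16, 30064384 to 30067796), which oscillates in progenitors by repressing its own gene, stood at 8.41 and 9.78. Hes5 was higher in replicate 1, and Hey1 and Hes1 were higher in replicate 2.

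The upstream sequence of Hes5 is shown because it is the highest member and holds matches to the RBPJ motif in both orientations. The window is the 250 bases before the start of the RefSeq gene, chr4:154960673-154960922 on the plus strand of GRCm38.p6, the build also called mm10, printed 5′ to 3′. Capitals mark GTGGGAA or, for a match on the other strand, its reverse complement.

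Hes5 upstream: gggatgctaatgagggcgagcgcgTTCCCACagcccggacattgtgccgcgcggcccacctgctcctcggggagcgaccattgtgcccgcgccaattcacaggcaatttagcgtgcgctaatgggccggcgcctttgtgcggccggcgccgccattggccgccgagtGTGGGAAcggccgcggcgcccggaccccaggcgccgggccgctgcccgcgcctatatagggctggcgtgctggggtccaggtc

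The matches begin 226 and 83 bases before the start. RefSeq windows were at hand for 8 of the 10 members, in 10 windows, without Hes1 and Hey1. Over all 32851 RefSeq windows of this length, 5.42% held at least 1 such match on either strand and 0.161% held 2 or more. Hes5 was the only member among the 8 with this motif. The shorter core TGGGAA, which lies inside the longer motif, was in 3 of the 10 windows against 21.6% of all windows, in Hes5 and in both windows of Rbpj. Among windows of other pathway genes, 5 of 69 held GTGGGAA, and that of the glycosyltransferase gene Lfng had it 109 bases before the start. The Rbpj and Lfng matches are shown with 10 bases on each side to set beside those of Hes5. The Rbpj stretches lie at chr5:53590187-53590212 and chr5:53590271-53590296 and the Lfng stretch at chr5:140607222-140607248, all on the plus strand. A match describes letters and does not show binding.

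Rbpj, distal: tgaaaaaggcTGGGAAcccgcggcga
Rbpj, proximal: cgctcgcattTTCCCAggacccctcc
Lfng: cgtatcccacGTGGGAAggagagatct

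The repressors also have a related short coding element near their carboxyl end. It is the WRPW motif in Hes proteins, which binds TLE corepressors, and the variant YRPW in Hey1, which is known not to bind them. The stretches come from GENCODE M21 transcripts, 5′ to 3′ along the coding strand, with the 4 codons of the motif in capitals. They lie at chr16:30067399-30067425 for Hes1, chr4:154961652-154961672 for Hes5 and, on the minus strand, chr3:8664511-8664540 for Hey1. In Hes5 no codon but the stop follows the motif, while 2 follow it in Hes1 and 7 in Hey1.

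Hes1-201: gactccatgTGGAGACCGTGGcggaac
Hes5-201: tgcggcctcTGGCGGCCCTGG
Hey1-201: ggcaagcccTATAGACCTTGGgggacagag

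Hes5 exceeded Hes1 by a log2 ratio of 1.79 ± 0.40, or 3.46-fold, with 2.08 in replicate 1 and 1.51 in replicate 2. Hey1 exceeded Hes1 by 2.38-fold, and this ratio hardly differed between the libraries, with −1.27 and −1.23 for Hes1 over Hey1. Hes5 exceeded Hey1 by 0.80 in replicate 1 and 0.28 in replicate 2, which was not beyond 2 SD. With protein-coding transcripts alone the latter ratio was 0.49 and −0.22, so Hes5 led in replicate 1 and Hey1 in replicate 2. The read-based table gave the same split, with 0.36 and −0.20. Which of the 2 was higher therefore differed between the pools on these scales. Across all 10 fixed pairs of members, 8 were separated in the alignment-based table.

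**Figure D2:**
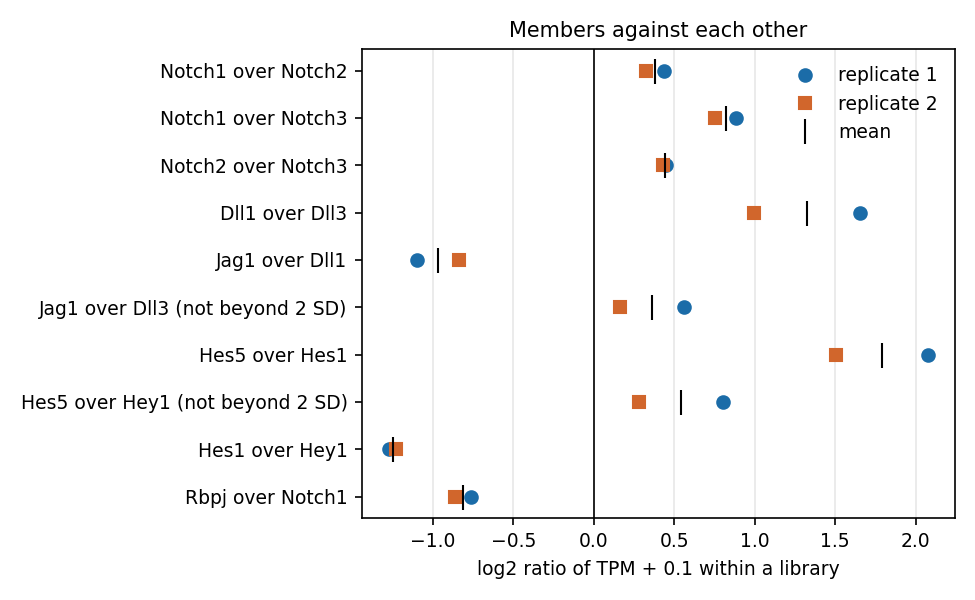
The log2 ratio of TPM plus 0.1 (horizontal axis) for 10 pairs of members within replicate 1 (circles) and replicate 2 (squares), with bars for the mean. The libraries lie on the same side of 0 in every pair, Hes5 over Hes1 is the largest ratio at a mean of 1.79, and the pairs Jag1 over Dll3 and Hes5 over Hey1 are not beyond 2 SD.

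Rbpj (ENSMUSG00000039191.12, chromosome 5, 53466152 to 53657362) stood at 11.3 and 9.45, below Notch1 by 1.76-fold. This value depended on the table. In the read-based table Rbpj stood at 25.9 and 25.2, against 24.6 and 27.7 for Notch1, and the pair was no longer separated, with a log2 ratio of −0.03 ± 0.15. Rbpj has 12 annotated transcripts, more than any other member, and reads can be split among them in several ways. In the alignment-based table Rbpj-203 led in both libraries at 5.02 and 5.55 TPM, followed by Rbpj-207 at 1.53 and 1.86. The read-based table gave Rbpj-203 8.66 and 8.43, and the processed transcript Rbpj-209 1.52 and 9.24, so Rbpj-209 led by TPM in replicate 2. That lead is per length and not of reads. Rbpj-209 has 548 bases and took 37.8 read-based counts in replicate 2, against 762 for Rbpj-203. In the same table Rbpj-210 at 5.72 and Rbpj-211 at 4.36 lay above Rbpj-207 at 2.89 in replicate 1, but not in replicate 2. Protein-coding transcripts of Rbpj held 17.9 and 13.6 in that table, below 21.38 and 20.95 for those of Notch1. The processed pseudogene Rbpj-ps3 on chromosome 6 held 108 and 51.7 expected counts. Reads shared between it and Rbpj make both levels uncertain.

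In the order of mean TPM, Hes5 was followed by Hey1, Notch1, Notch2, Rbpj, Notch3, Hes1, Dll1, Jag1 and Dll3. Neighbours were separated at 3 of the 9 steps, from Notch1 to Notch2, from Notch2 to Rbpj and from Dll1 to Jag1. Rbpj and Notch3 stood at 10.4 ± 1.29 and 10.3 ± 0.134 and changed places between the libraries. Hes1 and Dll1 also changed places, with Dll1 ahead in replicate 1 and Hes1 in replicate 2. The steps from Hes5 to Hey1, Hey1 to Notch1, Notch3 to Hes1 and Jag1 to Dll3 kept their sign in both libraries. They stayed within 2 SD. This order and its steps are those of the alignment-based table. In the read-based table Rbpj at 25.6 ± 0.460 lay above Notch2 at 18.4 ± 0.219, separated by a log2 ratio of 0.47 ± 0.01.

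Total RNA libraries also hold unspliced and partly spliced transcripts, so the TPM of each member was divided by transcript class. Protein-coding transcripts held a median over the members of 78.4% in replicate 1 and 85.0% in replicate 2. Notch3 was all coding, and Jag1 followed at 94.0 ± 5.65%. Hes1 had the lowest coding share, at 55.3 ± 4.65%, with 33.6 ± 0.208% in the retained-intron transcript Hes1-203. This share is one of transcripts per length and not of reads, since Hes1-203 has 406 bases and held 18.0 and 22.8 of the 153 and 209 Hes1 counts. Coding transcripts held 80.9% and 85.0% of the Hes1 counts.

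The other targets were divided in their own ways. Hes5-202, a processed transcript of 350 bases without a coding frame, held 32.9 ± 0.924% of the Hes5 TPM in the alignment-based table and 21.3 ± 2.62% in the read-based table. It took 59.7 and 53.3 of the 648 and 548 Hes5 counts. Gm20421, a non-coding gene on the opposite strand, overlaps the first 756 bases of Hes5 and held 7 and 9 counts. Hey1 was mostly coding, with retained introns at 15.6% in replicate 1 and 5.98% in replicate 2. Dll1 had 28.3 ± 0.329% in 3 retained-intron transcripts, close to the share of Hes1. Notch1-205, a retained-intron transcript of 4132 bases, held 2.37 and 1.24 TPM beside 15.0 and 14.6 for the full-length Notch1-201.

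**Figure D3:**
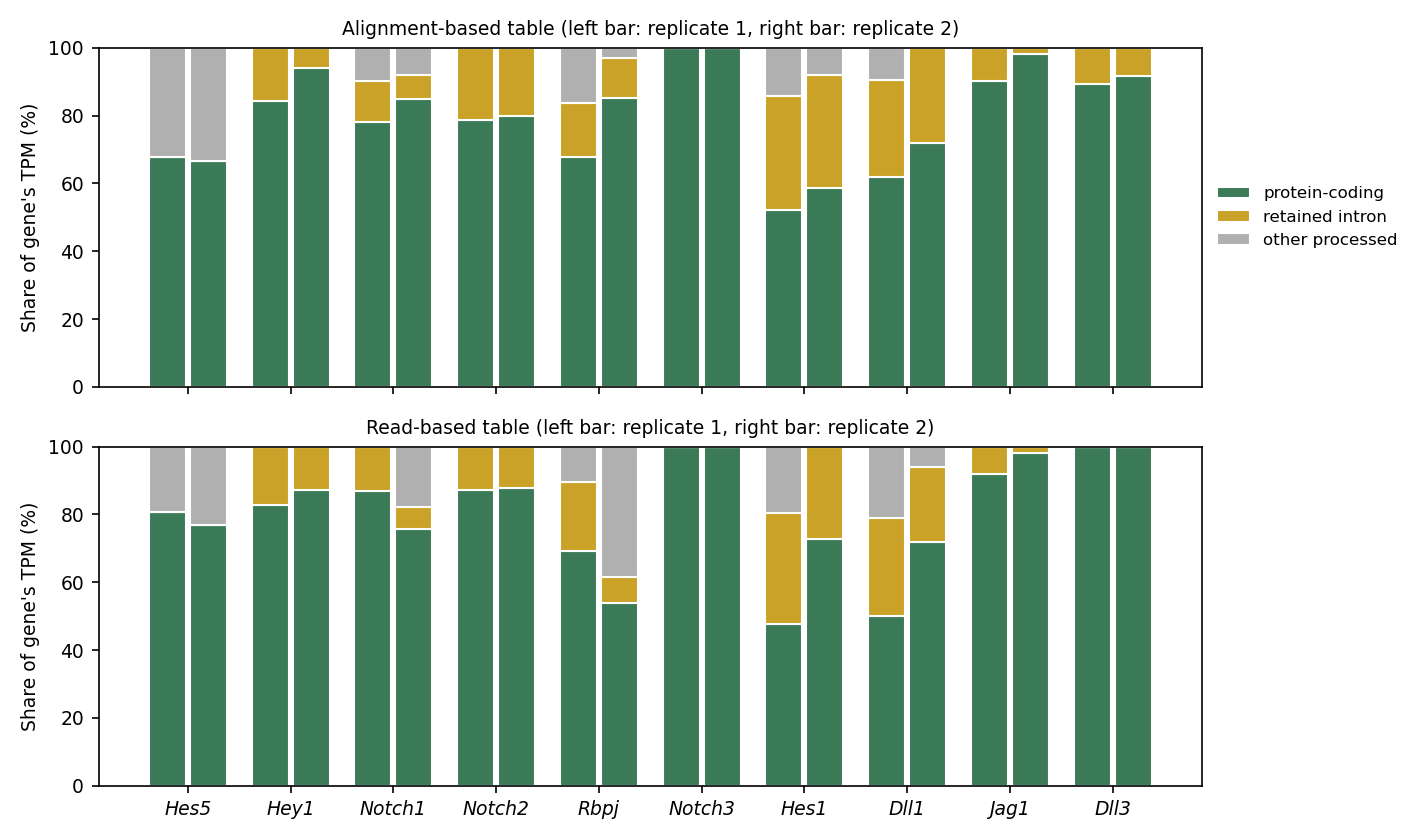
Share of each member's TPM in percent (vertical axis) held by protein-coding, retained-intron and other processed transcripts, in replicate 1 (left bars) and replicate 2 (right bars), for the alignment-based table above and the read-based table below. Notch3 is all coding in both tables, Hes1 has a coding share of 52.0% and 58.6% in the alignment-based table, and the split of Rbpj differs between libraries and tables.

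Replicate 2 was next set against replicate 1 to see how closely the pools matched. By an adjusted p under 0.05, 3 of 10 members passed, against 27.1% of all genes tested, so the members' share was near that of all genes. They were Hey1 and Hes1, higher in replicate 2, and Hes5, higher in replicate 1, each by less than 1.4-fold. Values are log2 ratios of counts scaled by TMM, a method that sets the bulk of genes equal, with their counting SE. Hey1 had 883 and 1167 counts, a ratio of 0.37 ± 0.06, or 1.29-fold higher in replicate 2, with an adjusted p of 1.31e-07. Hes1 had 153 and 209 counts, a ratio of 0.42 ± 0.15, or 1.33-fold, with an adjusted p of 0.0300. Hes5 had 648 and 548 counts, a ratio of −0.28 ± 0.08, with an adjusted p of 0.00599.

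These p-values came from a binomial test, exact and two-sided, run on 20544 genes with Benjamini-Hochberg adjustment. The test compares libraries and not conditions and knows only counting error. In the direction of replicate 2, 2 of 10 members passed against 15.7%, and in that of replicate 1, 1 of 10 against 11.5%. With a log2 ratio of 1 or more also required, 0 of 10 members were called, against 2.83% of all genes. An unadjusted p under 0.05 was reached by 4 of 10 members. The share of all genes at that unadjusted p was not counted, and it is at least the 27.1% that passed the adjusted p. edgeR's exact test included the spread between the pools, as a biological coefficient of variation of 11.1% taken from the same libraries. In it 0 of 10 members passed adjusted, beside 0.886% of all genes, and 0 unadjusted. Because the 2 pools compared also set that spread, this outcome cannot show that the members matched.

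Notch3 lay at the threshold, with 1643 and 1829 counts, a ratio of 0.12 ± 0.05 and an adjusted p of 0.0508 in the binomial test. It passed with DESeq2 size factors and in the read-based table, where Notch2 passed too. Notch1 had a ratio of 0.02 ± 0.04 and Notch2, with 2520 and 2705 counts, of 0.07 ± 0.04, so the 3 receptors were within 1.09-fold between the pools. Dll1 had a ratio of −0.20 ± 0.10, Jag1, with 445 and 440 counts, of −0.05 ± 0.10, and Rbpj, with 884 and 985, of 0.12 ± 0.07. Dll3, with 137 and 170 counts the shallowest ligand, had a ratio of 0.28 ± 0.17, and its 95% counting interval ran from −0.05 to 0.60. That interval covers both 0 and the ratio of Hey1. The median ratio over the 10 members was 0.09, and that over all genes tested was −0.01.

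**Figure D4:**
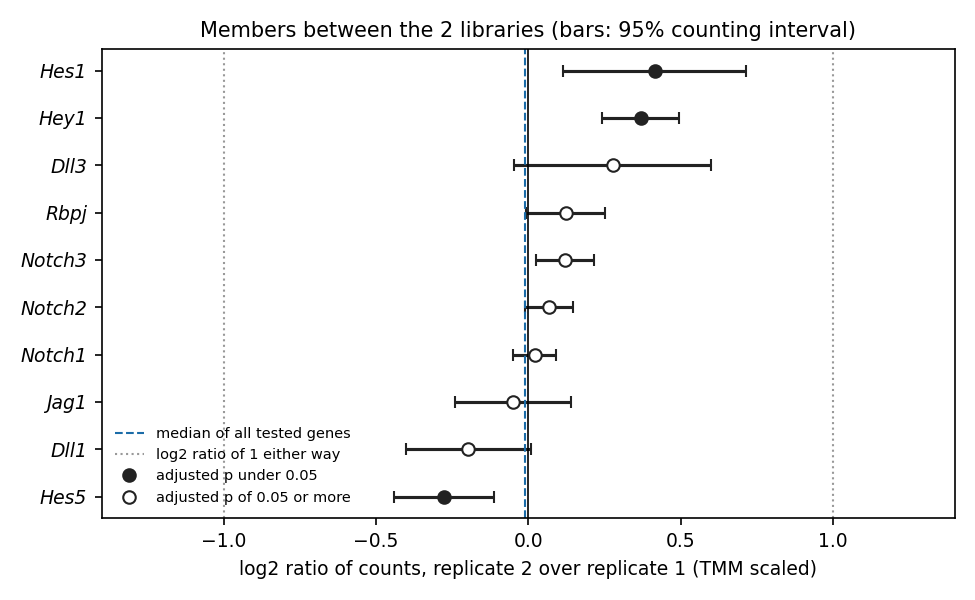
The log2 ratio of counts in replicate 2 over replicate 1 (horizontal axis) for each member, scaled by TMM, with 95% counting intervals, where filled points have an adjusted p under 0.05 in the binomial test. Hes1 at 0.42 and Hey1 at 0.37 lie to the right, Hes5 at −0.28 lies to the left, and no member reaches a log2 ratio of 1 in either direction.

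The direction for single members depended on the scaling. With library sizes set by the synthetic ERCC spike-in RNAs, the median ratio of protein-coding genes moved by −0.28, and Hes5 stood at −0.56. Hes1 at 0.13 and Hey1 at 0.09 no longer passed the binomial test, with adjusted p of 0.494 and 0.269. Under that scaling the 3 receptors, Dll3 and Rbpj turned to below 0. The members that passed were then Notch1, Notch2, Notch3, Dll1, Jag1, Rbpj and Hes5, all higher in replicate 1, against 54.3% of all genes. The gaps between members, such as that of Hes5 to Hey1, are the same under either scaling, but their directions are not. TPM ratios also differed from count ratios where the mix of transcripts changed. Rbpj had more counts in replicate 2 but less TPM, with a log2 TPM ratio of −0.25, while its effective length went from 3791 to 4602 bases.

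Some genes of cell types that use the pathway also passed the adjusted p between the pools, to be read against 15.7% of all genes higher in replicate 2 and 11.5% higher in replicate 1. Astrocyte genes (12 of 12 at a TPM of 1 or more in both libraries, led by Slc1a2) summed to 1724 and 1914 TPM. Of these, 9 of 12 passed the adjusted p higher in replicate 2. Their median log2 ratio was 0.19 with TMM, and spike-in sizes moved the median ratio of protein-coding genes by −0.28. The binomial test passes small ratios in genes with many counts, such as Gfap at 1.14-fold. Of 8 interneuron genes 6 also passed higher in replicate 2, as did 4 of 8 microglia genes. Genes of progenitors and immature neurons (12 of 13, led by Vim and Dcx) summed to 278 and 243, with 6 passing higher in replicate 1, including Dcx and, chosen after its values were seen, the cycling gene Mki67, and 1, Hopx, higher in replicate 2. Endothelial genes (10 of 10, led by Cldn5 and Esam) summed to 125 and 129 TPM, with 2 passing higher in replicate 2. Pericyte and smooth muscle genes (9 of 9, led by Rgs5 and Vtn) summed to 123 and 122, with 2 passing in each direction, so the endothelial and pericyte counts were close to those shares. Myelin genes (9 of 12) summed to 215 and 623. By both criteria 11 of 12 were higher in replicate 2, against 2.83% of all genes called in either direction. No marker of these lists was at 0 in both libraries. The part of these shifts in the ratios of Hes1, Hes5 and Hey1 was not tested.

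The rest of the pathway was read from 62 further genes, grouped by role. Of these, 58 reached a TPM of 1 in both libraries, and their median of 21.4 ± 1.11 was above the members' median of 10.4 ± 0.598. Among the other receptor and ligands, Jag2 stood at 29.1 and 24.0, above all 3 member ligands, while the endothelial receptor Notch4 stood at 5.71 and 6.71 and the endothelial ligand Dll4 at 3.25 and 2.95. Jag2 alone held more TPM than Dll1, Dll3 and Jag1 together in both libraries. With protein-coding transcripts alone the gap was much smaller, at 13.17 and 13.09 for Jag2 against 12.01 and 11.05 for those ligands together. On that scale Notch4 stood at 2.40 and 2.56, below Dll4 at 3.25 and 2.82. Of the surface proteins described as ligand-like, Cntn1, a neuronal adhesion protein, stood at 199 ± 10.1 and Dner at 91.0 ± 12.5. Egfl7, a secreted vascular protein, stood at 45.1 ± 0.728, or 22.8 ± 0.233 with protein-coding transcripts alone, and Dlk2 at 21.9 ± 1.53.

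Other genes of the Hes and Hey families were low, apart from Hes6, and the list also holds a feedback gene. Nrarp, a feedback inhibitor that is itself a Notch target, stood at 22.0 and 20.5, close to Hey1. Hes6, which counteracts Hes1 and favours differentiation, stood at 15.8 and 14.8. Heyl stood at 4.08 ± 1.25 and Hey2 at 1.53 ± 0.0141. Hes7, the target of the somite clock, held 15 and 16 counts, Hes3 held 0 and 1, and Hes2 held 0 in both, so Hes2 and Hes3 were not tested.

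Genes that process receptors and ligands had higher medians than the members, at 45.6 for the ligand ubiquitin ligases, 24.2 for cleavage and 16.1 for glycosylation and maturation. Ligand ubiquitin ligases, which a sending cell needs to pull on the receptor, were led by Mib1 at 78.2 ± 5.25, then Neurl1a at 51.6 ± 3.53, Mib2 at 38.4 ± 5.52 and Neurl1b at 37.6 ± 1.20. The cleavage genes had 9 of 9 detected, led by the gamma-secretase subunits Aph1a at 42.4 ± 3.12, Psenen at 37.5 ± 3.83 and Ncstn at 33.3 ± 2.06, with the sheddase Adam10 at 32.8 ± 2.88. Of the genes that glycosylate or mature the receptor, Rfng led at 39.3 ± 1.31, with the convertase Furin at 26.9 ± 2.96. Poglut1 stood at 18.3 ± 1.46 and Lfng at 13.9 ± 1.53. With protein-coding transcripts alone, Poglut1 stood at 5.71 ± 0.424, below Lfng at 13.2 ± 1.76. On that scale Mib2 stood at 19.8 ± 1.47, below Neurl1b at 37.6 ± 1.20.

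Nuclear partners were divided. The Mastermind-like coactivators were low, with Maml1 at 4.41 ± 0.0212, Maml2 at 4.99 ± 0.0990 and Maml3 at 3.04 ± 0.148, all below Rbpj at 10.4 ± 1.29. Among coactivators of broader use, the acetyltransferase genes Ep300 stood at 27.2 ± 2.69 and Kat2a at 26.1 ± 1.20, and Snw1 at 22.3 ± 0.205. Corepressor genes had a higher median of 26.1, with Ctbp1 at 130 ± 5.85, Ncor1 at 103 ± 9.89 and Hdac2 at 51.7 ± 1.52 among them. The TLE corepressor genes, whose products bind the WRPW motif of Hes proteins, ran from 10.5 ± 1.66 for Tle2 to 28.5 ± 1.14 for Tle3. Among inhibitors and turnover genes, the Deltex gene Dtx3 led at 88.2 ± 1.26, followed by the Numb relative Numbl at 59.9 ± 6.60, the ubiquitin ligase gene Fbxw7 at 53.8 ± 2.89 and Dtx1 at 37.0 ± 1.96.

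**Figure D5:**
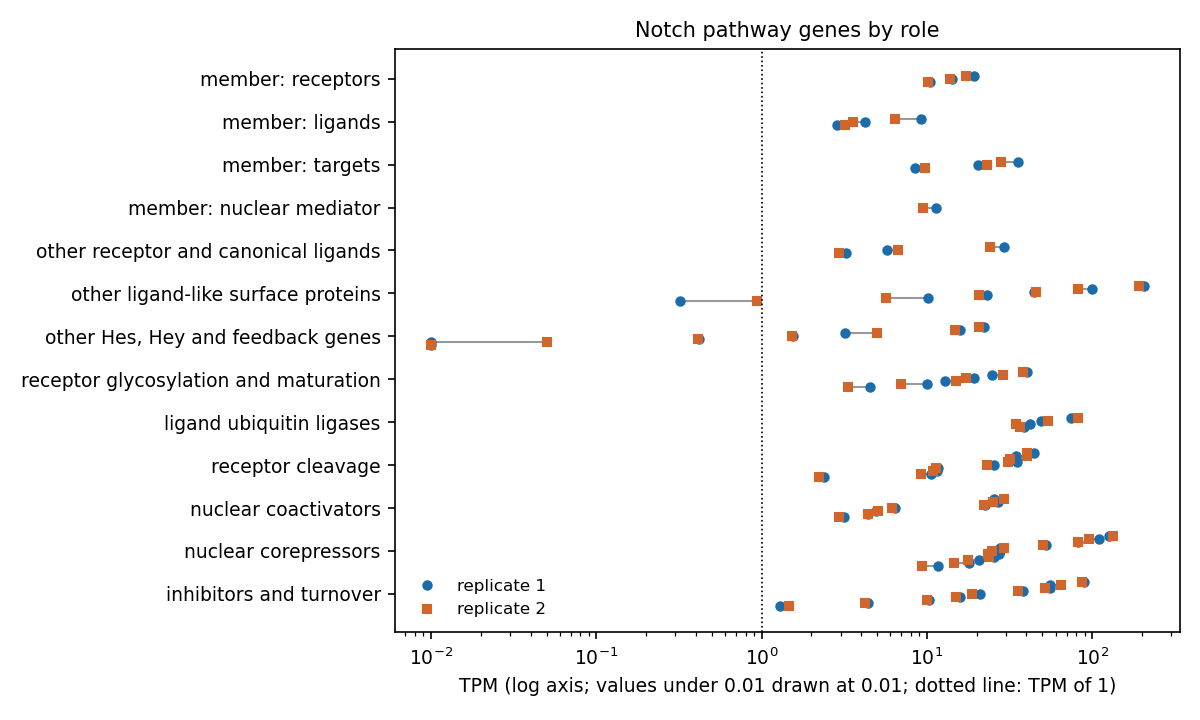
TPM on a log axis (horizontal) of every gene in the pathway lists, by role (rows), in replicate 1 (circles) and replicate 2 (squares), joined by a line for each gene, with a dotted line at a TPM of 1. Member ligands lie between 2.84 and 9.17, and the ligand ubiquitin ligases lie from 34.5 to 81.9. Hes2 in both libraries and Hes3 in replicate 1 are at the left edge, and Hes3 in replicate 2 is at 0.05.

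Between the pools, 60 of these 62 genes could be tested and 17 had an adjusted p under 0.05 in the binomial test, 12 higher in replicate 2 and 5 higher in replicate 1. This was near the 27.1% of all genes, with 15.7% and 11.5% in these directions. Their median log2 ratio was 0.02, beside −0.01 over all genes tested. The ratio criterion was also met by 1, against 2.83% of all genes, the ligand-like imprinted gene Dlk1, with 11 and 31 counts, a log2 ratio of 1.42 ± 0.50 and an adjusted p of 0.0143, and it was not called by edgeR's exact test with the dispersion included, at an adjusted p of 0.295, while under the other alternatives its adjusted p ran from 0.00532 to 0.0367. Lfng, which tunes the response of receptors to ligands, had 562 and 734 counts and a ratio of 0.35 ± 0.08. Those higher in replicate 1 included Cntn6, with a ratio of −0.71 ± 0.09, and Tle2, with −0.39 ± 0.10. Both were chosen after their values were seen. The ratios of the 7 coactivators ran from −0.03 to 0.14.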

How the data were processed

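Per library there were gene and transcript tables from transcriptome alignments and a transcript table from reads and an index, on mm10 with annotation M21, per the file headers and notes deposited with them. Programs and use of strand in counting: not given in the sources used here. Expected counts, as deposited, are estimated reads without normalization and were rounded for tests. TPM, as deposited, has 1 fixed sum per library, and FPKM, as deposited, served 1 alternative. The transcript percent column, as deposited, was not used, and shares were computed from TPM. Read-based values were summed per gene.

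The replicate test used genes with 10 or more counts over both libraries, TMM library sizes, a pseudocount of 0.5 counts in ratios and an adjusted p threshold of 0.05. Pairs used TPM plus 0.1. With 1 group there was no residual spread for a quasi-likelihood test. Totals were 29858328 and 32275110 counts, and intervals cover counting error alone. Replicate p-values measure the difference of 2 pools.

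Members and lists were chosen with earlier results of these data known. Named genes were all members, up to 4 genes with the highest mean TPM of each pathway group, every further pathway gene called, and up to 2 of each cell type list, and genes outside this rule were chosen after their values were seen. Some genes that the rule selects are not reported here. With 2 libraries no gene was named for likeness of pattern. Alternatives were DESeq2 size factors, spike-in sizes, no count filter, the read-based table, edgeR's exact test, other pseudocounts and scales, and each library alone. Promoter windows are from RefSeq (GRCm38.p6) and gene models from GENCODE M21. In counts simulated over 20631 genes with counting error alone, the binomial test called 100 of 100 genes changed 4-fold. By adjusted p it passed 88 of 100 changed 1.5-fold and 8 of 20431 unchanged genes, of which it called 3. The simulation holds no spread between pools, so it does not give the rate of false calls in these libraries. Software was R 4.3.3 with edgeR 4.0.16 and DESeq2 1.42.0, and Python 3.11.15 with pandas 2.3.3.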

Additional observations from a re-analysis of the deposited data

How the results depend on the processing

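No paired analysis was possible because the study has 1 group. The count of members called stayed at 0 of 10 under all 5 alternatives of the library test. That is near the share of all genes called, which ran from 0.808% in edgeR's exact test to 6.21% with spike-in sizes. The count at an adjusted p under 0.05 was 3, beside 27.1% of all genes. It was 7 with spike-in sizes, beside 54.3%, 5 in the read-based table, beside 29.7%, and 0 in edgeR's exact test, beside 0.886%. With spike-in sizes the log2 ratios that turned were −0.26 for Notch1, −0.21 for Notch2, −0.16 for Notch3, −0.0065 for Dll3 and −0.16 for Rbpj, since that scaling lowers all ratios alike. The further pathway genes called went from 1 to 0 in edgeR's exact test, beside 0.808% of all genes, with 2 at an unadjusted p under 0.05. The share of all genes at that unadjusted p was not counted. The members' median TPM of 10.4 became 18.3 in the read-based table, 23.2 when rescaled to nuclear protein-coding genes and 9.06 with protein-coding transcripts alone, an alternative chosen after seeing the data. It ran from 9.99 to 10.8 with either library left out. Pairs separated numbered 8, or 7 in the read-based table, where Rbpj over Notch1 went to −0.030. No pair turned with either library left out. The cause of the differences between tables was not tested. Depth limits Dll3 and Hes1, the members with the fewest counts.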

Other observations

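Genes annotated over the members were low. On the opposite strand to Notch3, Gm17276 held 21 and 19 expected counts beside 1643 and 1829 for Notch3. At the 3′ side of Notch1, 0610009E02Rik held 30 and 21 counts and Gm13568 held 3 and 0. Within Notch2, on the same strand, Gm42819 held 42 and 33 counts and Gm42820 held 33.1 and 21.2. The antisense genes Gm10441 and Gm40304 inside Rbpj held 0 counts in both libraries of the alignment-based table.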
